A study of Mus musculus with 13 samples.

Results

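The genes described are the mouse carriers of organic anions and cations: 42 genes of the deposited table whose symbol begins with Slc22a, Slco or Slc47a followed by a digit, out of 22298 genes in all. They comprise 26 Slc22a, 14 Slco and 2 Slc47a genes. They were measured by RNA sequencing in the liver and kidney of CD-1 (ICR) mice, an outbred stock, as adult offspring at 8 weeks of age. The 13 libraries were 3 livers and 4 kidneys of mice that developed from vitrified oocytes, and 3 livers and 3 kidneys of mice from fresh oocytes. Vitrification is rapid cooling of the egg cell to a glass-like solid. It was done here by the Cryotop method, and thawed oocytes rested in KSOM medium before use. Both origins shared in vitro fertilisation, culture in KSOM to cleaved embryos, transfer into pseudopregnant females and normal rearing, so no group was conceived without these steps. The labels call the libraries biological replicates but name no sex, litter, parent or batch. They leave unsaid whether organs with a shared replicate number belonged to 1 animal.

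Proteins of the Slc22a family sit in the plasma membrane and move small organic anions, cations and zwitterions such as drugs, urate, carnitine and steroid conjugates, while Slco proteins take up larger amphipathic anions such as bile acids, hormone conjugates and prostaglandins. Slc47a proteins exchange protons for organic cations and expel them into urine or bile. Hepatocytes and cells of the kidney's proximal tubule are the textbook sites of both uptake and excretion, and several of these genes are known to be expressed unequally in male and female mice.

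Levels are given as normalised CPM: the deposited estimated counts brought to 1 common library size with TMM scaling, which aligns the bulk of genes between libraries. Totals lay between 16073251 and 19964914 estimated counts. The markers went with the tissue labels, since 8 hepatocyte markers summed to 101700 CPM or more in each liver and 2160 CPM or less in each kidney, and 8 proximal tubule markers to 9060 CPM or more in each kidney and 127.4 CPM or less in each liver. Across 4 Y-linked genes, 3 libraries stood apart at 0.109 CPM (kidney vitrified 4), 0.817 CPM (kidney fresh 3) and 1.13 CPM (liver fresh 3), against 215 to 274 CPM in the other livers and 108 to 136 CPM in the other kidneys. They are called the libraries near 0 in Y-linked counts, and results that rest on them are given with and without them. Stress genes stood out in liver vitrified 3 (summed 676 CPM) and kidney vitrified 3 (832 CPM), where no other library exceeded 87.9 CPM. In bulk tissue, fewer cells of a type and less RNA per cell cannot be told apart.

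Of the 42 genes, 33 reached 1 CPM in at least 1 library. Slc22a16, Slc22a20, Slco6c1 and Slco6d1 had no count in any library. Slc22a13b, Slc22a14, Slc47a2, Slco1a5 and Slco5a1 had some counts but stayed below 1 CPM in every library. After the filter on low counts, 32 genes were tested between organs, 24 between origins in liver and 31 between origins in kidney.

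**Figure D1:**
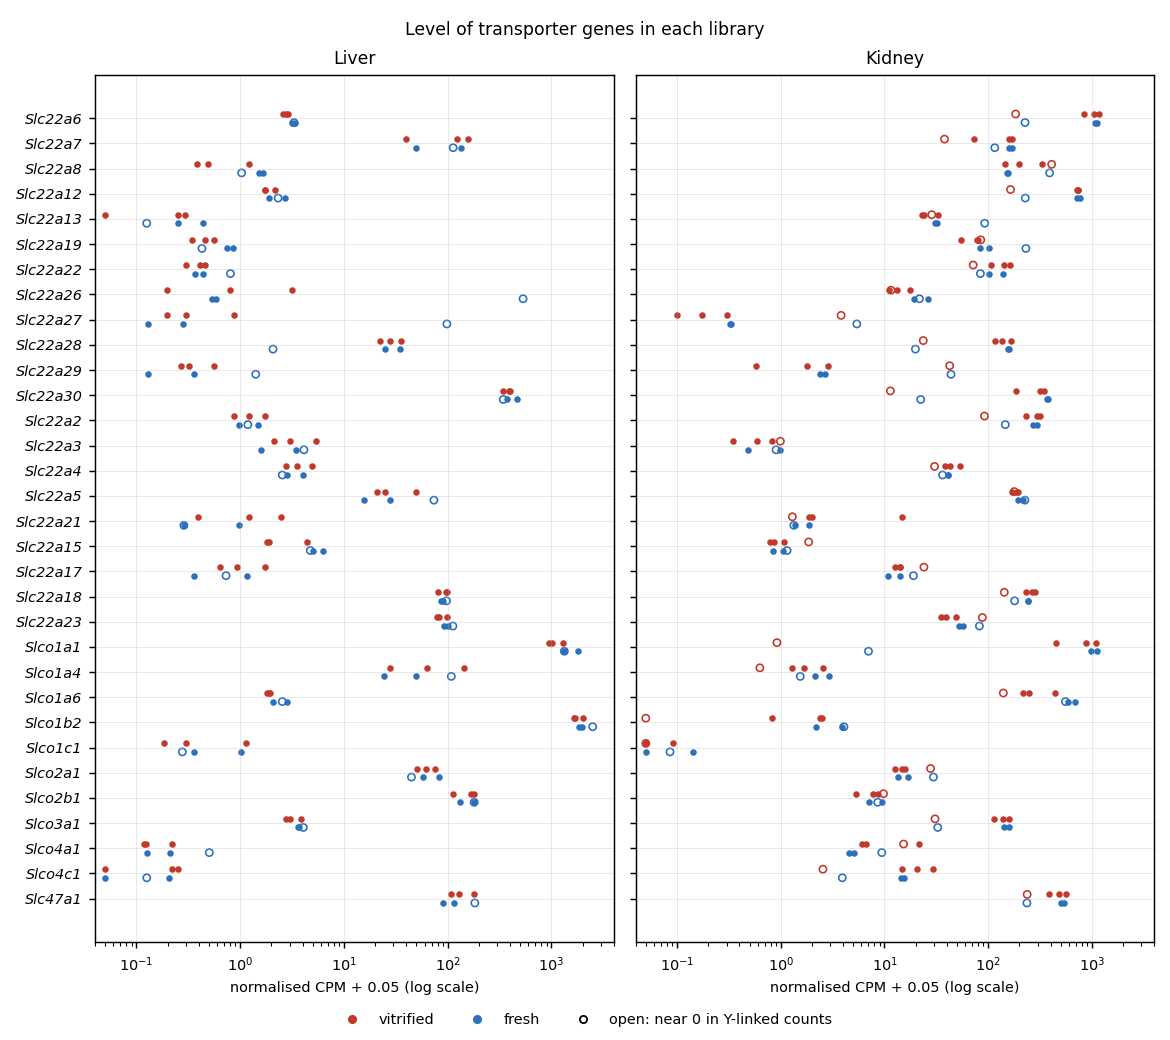
Normalised CPM plus 0.05 (log scale) of genes that reached 1 CPM in some library, 1 point per library, liver in the left panel and kidney in the right, vitrified above fresh in each row, with open points for the 3 libraries near 0 in Y-linked counts. Slco1b2 lies at 1639 CPM or more in every liver and at 4.01 CPM or less in every kidney, and Slc22a12, Slc22a6 and Slco1a6 lie the other way round.

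Within an organ, genes were ranked by FPKM, the authors' value per kilobase of transcript, because only a value per length compares levels between genes. Liver was led by a pair of uptake carriers: Slco1b2, which takes up bile acids, bilirubin conjugates and drugs, averaged 408 ± 76 FPKM and Slco1a1, a carrier of steroid conjugates, 255 ± 73 FPKM (SD, n = 6). The next Slco genes, Slco2b1 and Slco1a4, averaged 29.9 and 17.2 FPKM. Among Slc22a genes, liver was led by Slc22a30, of a rodent-specific group of organic anion transporters, at 116 ± 12 FPKM. Slc22a18 averaged 42.5 FPKM and Slc22a7 (Oat2) 35.9 FPKM.

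In kidney the Slc22a family held more of the signal. Slc22a12 (Urat1, the urate reabsorber) averaged 354 ± 149 FPKM, Slc22a6 (Oat1, which takes anions such as p-aminohippurate from the blood) 268 ± 134 FPKM and Slc22a18 202 ± 33 FPKM (SD, n = 7). The means of Slc22a12 and Slc22a6 differed by less than either SD, and both SDs were widened by the libraries near 0 in Y-linked counts. Over the other 5 kidneys Slc22a12 averaged 440.4 ± 18.9 FPKM and Slc22a6 344 ± 46 FPKM, while Slc22a8 led the Slc22a genes in kidney vitrified 4 (186 FPKM) and Slc22a18 in kidney fresh 3 (181 FPKM). The leading Slco genes were Slco1a1 (242 ± 187 FPKM), Slco1a6 (203 ± 104 FPKM) and Slco3a1 (42.0 FPKM). Slco1a1 led in those 5 kidneys, at 339 ± 109 FPKM, but was at 0.390 and 3.06 FPKM in kidney vitrified 4 and kidney fresh 3, where Slco1a6 led at 79.0 and 303 FPKM. Slc47a1 (Mate1), the exit carrier of organic cations, averaged 35.0 FPKM in liver and 214 FPKM in kidney.

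Liver and kidney were then compared, to find which carriers belong to which organ. Most carriers differed, and more of them were higher in kidney. Of 32 tested genes, 26 passed edgeR's quasi-likelihood test at an adjusted p under 0.05, 7 higher in liver and 19 lower in liver than in kidney. Over all 14441 genes tested, 62.7% passed, 30.3% higher in liver and 32.4% higher in kidney, so the carriers higher in liver (21.9%) were fewer and those higher in kidney (59.4%) more than among genes at large. In normalised CPM, every liver lay above every kidney, or below, for 21 of 32 carriers (39.7% of all genes). Of these, 5 lay above and 16 below (17.5% and 22.2% of all genes). The median log2 fold change of the carriers, liver over kidney, was -1.99, beside 0.00 for all genes tested. Scaling by library totals alone shifts the median of all genes by -0.99, since the 20 most abundant genes take a larger share of liver counts. With that scaling 6 carriers were higher in liver and 21 lower, and of all genes 1522 were higher and 10065 lower.

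The Slco1 genes of hepatocyte uptake gave the largest differences in favour of liver. Slco1b2 (ENSMUSG00000030236) lay at 1639, 1901 and 2501 CPM in liver (lowest, median and highest of 6) and at 0, 2.35 and 4.01 CPM in kidney (of 7). The organs did not overlap, and the log2 fold change, liver over kidney, was 9.81 ± 0.80 (SE, adjusted p = 2.3e-07). In kidney it was lowest in kidney vitrified 3 and 4, at 0.774 and 0 CPM, against 2.14 to 4.01 CPM in the other 5 kidneys. In those 2 libraries 6 of 8 hepatocyte markers were also below their level in any other kidney, among them the albumin gene Alb at 1.02 and 6.73 CPM, against 83.9 to 200 CPM. The other 2 markers did not follow: Ttr had 419.8 and 0.543 CPM, against 6.63 to 226 CPM, and Cyp2e1 had 1662 and 24.3 CPM, against 50.3 to 1872 CPM. Slco1b2 in kidney stood at 0.114% of its liver level, and the 8 hepatocyte markers at a median of 0.0888%. Whether these kidney counts came from kidney cells was not tested.

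Slco1a4 (Oatp1a4, which carries anions and digoxin) lay at 24.3, 56.6 and 144 CPM in liver and at 0.579, 1.63 and 2.88 CPM in kidney, again without overlap (log2 fold change 5.27 ± 0.51, adjusted p = 1.68e-06). Slco2b1 (Oatp2b1, a carrier of steroid sulfates) lay at 113, 174 and 181 CPM in liver and at 5.26, 8.56 and 9.74 CPM in kidney (4.30 ± 0.19). Slco2a1, the prostaglandin uptake carrier, lay at 44.8, 59.7 and 82.4 CPM in liver and at 12.6, 15.6 and 29.6 CPM in kidney (1.73 ± 0.24). In normalised CPM all 3 were higher in every liver than in any kidney. In FPKM Slco2a1 overlapped, at 4.31 to 8.10 in liver and 2.44 to 6.37 in kidney, and so it did with library totals alone. Its call held in the other settings, but its log2 fold change went down to 0.63.

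Among Slc22a genes, 3 were higher in liver, at smaller ratios than Slco1b2, Slco1a4 and Slco2b1. Slc22a3 (Oct3, a cation carrier) averaged 3.23 CPM in liver and 0.680 CPM in kidney (2.22 ± 0.37). Slc22a15, of the same family and less well studied, averaged 3.97 CPM in liver and 1.04 CPM in kidney (1.85 ± 0.30). Its organs overlapped, at 1.77 to 6.18 CPM in liver and 0.736 to 1.81 CPM in kidney. In FPKM both Slc22a3 and Slc22a15 overlapped. Over other settings their log2 fold changes went down to 0.28 and 0.31. Slc22a23 averaged 94.0 CPM in liver and 57.6 CPM in kidney (0.69 ± 0.21, adjusted p = 0.0104), but its direction turned to -0.33 with library totals alone and to between -0.24 and -0.23 on the log2(FPKM + pseudocount) scale, so it depends on the scaling.

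Among Slc22a organic anion transporters, 8 of 12 tested were lower in liver and 0 higher, beside 32.4% and 30.3% of all genes. The other 4 did not pass: Slc22a7, Slc22a26, Slc22a27 and Slc22a30, the last of which led the Slc22a genes of liver by FPKM. Slc22a6 (ENSMUSG00000024650) lay at 2.52, 2.98 and 3.32 CPM in liver and at 184, 1054 and 1178 CPM in kidney (log2 fold change -8.09 ± 0.57, adjusted p = 4.89e-08). Its chromosomal neighbour Slc22a8 (Oat3, ENSMUSG00000063796), an uptake carrier for many drugs, lay at 0.336, 1.07 and 1.60 CPM in liver and at 146, 198 and 409 CPM in kidney (-8.05 ± 0.46, adjusted p = 5.29e-09). Slc22a12 (ENSMUSG00000061742) lay at 1.67, 1.97 and 2.63 CPM in liver and at 164, 720.1 and 773 CPM in kidney (-8.16 ± 0.49, adjusted p = 8.36e-09). For these 3 genes every kidney exceeded every liver by far, also in the lowest kidney library.

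At similar ratios were the prostaglandin carrier Slc22a22 (-8.09 ± 0.31), Slc22a19 (Oat5, -7.65 ± 0.34) and Slc22a13 (-7.61 ± 0.45), which in humans carries nicotinate and urate. Slc22a28 (-2.19 ± 0.67) and Slc22a29 (-4.97 ± 1.33) also passed, and both changed with the libraries near 0 in Y-linked counts. Slc22a28 overlapped between organs, at 2.02 to 35.7 CPM in liver and 19.8 to 167 CPM in kidney. Without the 3 such libraries its log2 fold change was -2.33 ± 0.18 (adjusted p = 9.13e-07 by edgeR). Slc22a29 rests on kidney libraries near 0 in Y-linked counts. Its log2 fold change was -2.98 ± 0.56 (adjusted p = 0.000842 by edgeR) without the 3 such libraries. It was -3.56 without kidney vitrified 4 alone, -3.62 without kidney fresh 3 alone and -5.75 without liver fresh 3 alone.

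The other families followed suit in part. Slc22a2 (Oct2), the cation uptake carrier of the tubule, lay at 0.816, 1.15 and 1.68 CPM in liver and at 92.0, 268 and 314 CPM in kidney (-7.63 ± 0.39). All 3 tested carriers of carnitine and zwitterions were lower in liver: Slc22a4 (Octn1, ergothioneine; -3.57 ± 0.20), Slc22a5 (Octn2, carnitine; -2.48 ± 0.33) and Slc22a21 (Octn3; -1.80 ± 0.69). The call for Slc22a21 was weak (adjusted p = 0.0363). It was lost without any 1 of liver fresh 2 (0.0826), liver fresh 3 (0.0813), liver vitrified 1 (0.0680), liver vitrified 3 (0.0699), kidney fresh 1 (0.0516), kidney fresh 2 (0.0662) or kidney vitrified 2 (0.0730, where the fold change was -1.03). Slc22a17, a receptor for lipocalin 2, was lower in liver (-4.15 ± 0.33), as was Slc22a18 (-1.30 ± 0.17).

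Of the Slco genes lower in liver, Slco1a6 (ENSMUSG00000079262), a kidney member of the Slco1 cluster, lay at 1.77, 1.96 and 2.80 CPM in liver and at 140, 443 and 691 CPM in kidney (-7.56 ± 0.31, adjusted p = 2.07e-10). Slco4c1, which in rodent kidney takes up digoxin and thyroid hormone, had a log2 fold change of -7.04 ± 0.79. Slco4a1, a thyroid hormone carrier, had -5.79 ± 0.51, and Slco3a1, which can carry prostaglandins, -5.01 ± 0.47. Slc47a1 lay at 89.4, 122 and 183 CPM in liver and at 236, 479 and 564 CPM in kidney (-1.65 ± 0.28, adjusted p = 0.000156), with every kidney above every liver.

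For 6 genes the organs did not pass the test. Slc22a7, at 39.4, 118 and 155 CPM in liver and 37.8, 157 and 170 CPM in kidney, overlapped (log2 fold change -0.31 ± 0.40). It was called lower in liver in 5 of 28 other settings, down to -1.34, namely with library totals alone, with a replicate block and in the 3 fits on FPKM. Slco1a1 (0.97 ± 1.05), Slc22a30 (0.72 ± 0.67), Slc22a27 (1.34 ± 1.58) and Slc22a26 (-0.14 ± 1.17) had wide errors, and single libraries of an organ differed many times over. Slc22a30 and Slc22a27 were each called higher in liver in 1 other setting, a fit with a term for Y-linked counts, and Slc22a26 was called lower in 4, among them the vitrified libraries alone. Without the 3 libraries near 0 in Y-linked counts the values were 0.51 ± 0.25 for Slco1a1 (adjusted p = 0.108) and 0.29 ± 0.19 for Slc22a30 (0.206), while Slc22a26 was then lower in liver (-4.39 ± 0.59, adjusted p = 0.000121).

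**Figure D2:**
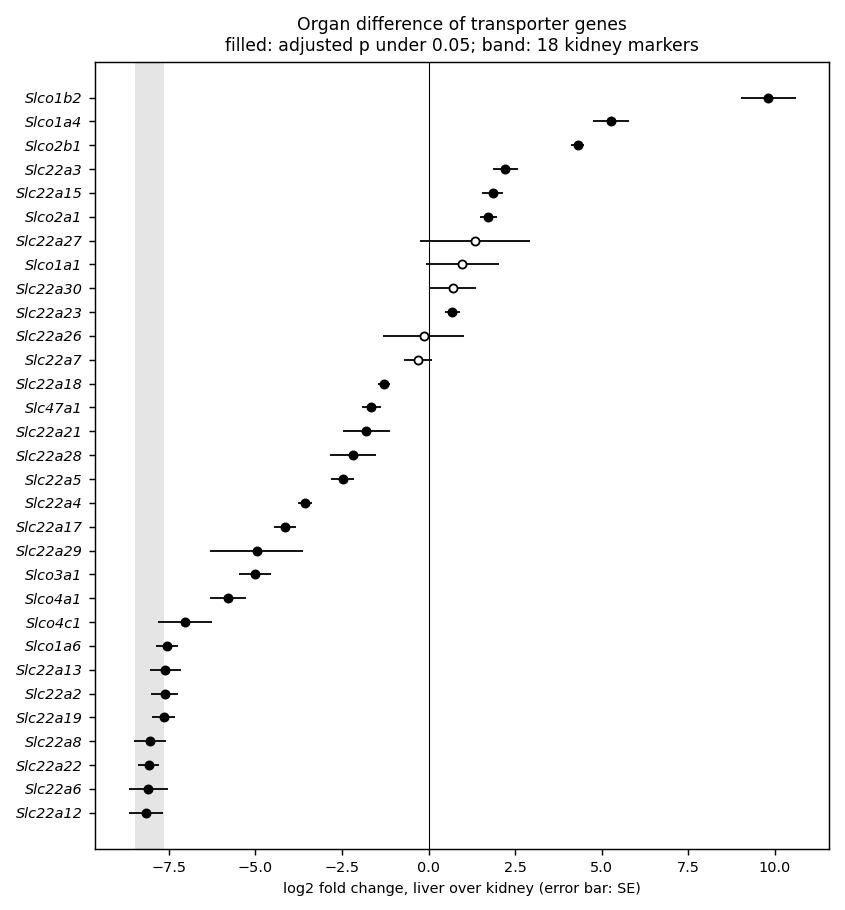
Log2 fold change, liver over kidney, of tested genes with SE from edgeR, filled where the adjusted p was under 0.05. The grey band spans the same value for the 18 kidney marker genes whose liver level was below 1% of that in kidney; 9 carriers lie in or next to it, while Slco1b2 stands alone at 9.81.

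Some carriers stood in liver at less than 1% of their kidney level, as did most markers of kidney structures. Of 31 carriers with a mean of 1 CPM or more in kidney, 9 were below 1%: Slc22a2, Slc22a6, Slc22a8, Slc22a12, Slc22a13, Slc22a19, Slc22a22, Slco1a6 and Slco4c1, at 0.350% to 0.695% of their kidney level. So were 18 of 22 markers of proximal tubule, thick limb, distal tubule, collecting duct and podocyte, at 0.263% to 0.508% (median 0.378%), among them Umod of the thick limb. The other markers, Slc13a3, Podxl, Slc4a1 and Wt1, stood at 4.40% to 6.14%. The share of all genes below 1% was not computed. No kidney marker was at 0 in all livers. Whether the liver counts of these 9 carriers came from liver cells was not tested.

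The libraries near 0 in Y-linked counts were set beside the others, as a description with no test, because the kidney levels of many carriers followed them. In kidney vitrified 4 and kidney fresh 3, 20 of 31 tested carriers lay outside the range of the other 5 kidneys, 14 below and 6 above. Among all 14018 genes tested in kidney this was so for 35.1%, 18.4% below and 16.8% above, so the share below (45.2%) was more than that of genes at large. The 2 libraries had larger scaling factors than the other kidneys (1.57 and 1.54, against 1.26 to 1.38). On CPM from library totals alone 11 carriers lay below and 11 above, beside 8.4% of all genes below and 32.9% above.

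The widest downward gaps were in these 3 carriers. Slco1a1 had 0.869 and 6.96 CPM in the same pair (kidney vitrified 4, then kidney fresh 3), against 1086, 455 and 876 CPM in kidney vitrified 1, 2 and 3 and 1116 and 984 CPM in kidney fresh 1 and 2. Slc22a30 had 11.3 and 22.3 CPM in the same 2 libraries, against 186 to 376 CPM in the other 5. Slc22a28 had 23.6 and 19.8 CPM, against 117 to 167 CPM. Both vitrified and fresh kidneys held 1 such library, so each origin group spanned both levels.

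The main anion carriers of the tubule were lower there by smaller factors. Slc22a6 had 184 and 226 CPM, against 829 to 1178 CPM, and Slc22a12 had 164 and 227 CPM, against 713 to 773 CPM. The cation carriers Slc22a2 (92.0 and 146 CPM, against 230 to 314 CPM) and Slc47a1 (237 and 236 CPM, against 386 to 564 CPM) and the Slco genes Slco3a1 (30.7 and 32.6 CPM, against 113 to 159 CPM) and Slco4c1 (2.50 and 3.87 CPM, against 14.4 to 29.3 CPM) were lower too. Slc22a8 ran the other way, at 409 and 391 CPM, against 146 to 331 CPM. So did Slco2a1, at 27.8 and 29.6 CPM, against 12.6 to 16.9 CPM.

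Other proximal tubule genes did not all follow in normalised CPM, with 3 of 8 markers below the other kidneys, 1 above and the rest within or across their range. The androgen-regulated Kap had 3100 and 6327 CPM in these libraries, against 19120 to 24800 CPM in the other kidneys, Slc34a1 had 2298 and 2093 CPM, against 2789 to 3551 CPM, and Slc13a3 had 287 and 310 CPM, against 368 to 487 CPM. With library totals alone, neither Slc34a1 nor Slc13a3 lay below all other kidneys in both libraries, so these positions depend on the scaling. Slc5a2 was above, at 284 and 274 CPM, against 166 to 272 CPM. Lrp2 (1501 and 2259 CPM, against 1363 to 2353 CPM), Cubn, Slc5a12 and Miox lay within the range of the others. The 8 markers summed to 9060 and 13040 CPM, against 26130 to 31120 CPM. Most of that gap lies in Kap, the most abundant of them, so the sum does not stand for the other markers. Markers of other kidney structures were higher in the same 2 libraries: 4 of 5 of thick limb and distal tubule (summed 6293 and 5435 CPM, against 3314 to 4236 CPM), 3 of 5 of collecting duct (456 and 306 CPM, against 172 to 301 CPM), 4 of 4 of podocyte (563 and 410 CPM, against 186 to 234 CPM) and 3 of 4 of endothelium (285 and 219 CPM, against 148 to 196 CPM) lay above all other kidneys. The part of cell content in the carriers' levels was not tested.

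On chromosome 19 the carriers lie side by side in the order Slc22a19, Slc22a26, Slc22a27, Slc22a28, Slc22a29, Slc22a30, Slc22a8 and Slc22a6, and these neighbours moved in both directions. Slc22a29 had 42.5 and 43.7 CPM in these 2 libraries (kidney vitrified 4, then kidney fresh 3), against 1.74, 2.80 and 0.530 CPM in kidney vitrified 1, 2 and 3 and 2.65 and 2.32 CPM in kidney fresh 1 and 2. Slc22a27 had 3.77 and 5.36 CPM, against 0.279 CPM or less. Of the 50-base words of Slc22a27 transcripts, 25.3% also occur in Slc22a29. The part of that shared sequence in the Slc22a27 values was not tested. Slc22a28 and Slc22a30, on either side of Slc22a29, were lower, as given above. In liver, where liver fresh 3 is the library near 0, Slc22a26 had 533 CPM in it, against 3.13 CPM or less in the other 5 livers, and Slc22a27 had 98.4 CPM, against 0.816 CPM or less. Slc22a28 had 2.02 CPM, against 22.5 to 35.7 CPM. The 24 carriers tested between origins in liver leave out Slc22a26 and Slc22a27. Of these 24, 9 lay outside the range of the other livers in liver fresh 3, close to the 36.7% of all genes. Slco1a1, low in the 2 kidneys, was at 1332 CPM in liver fresh 3, within the range of the other livers (957 to 1820 CPM).

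**Figure D3:**
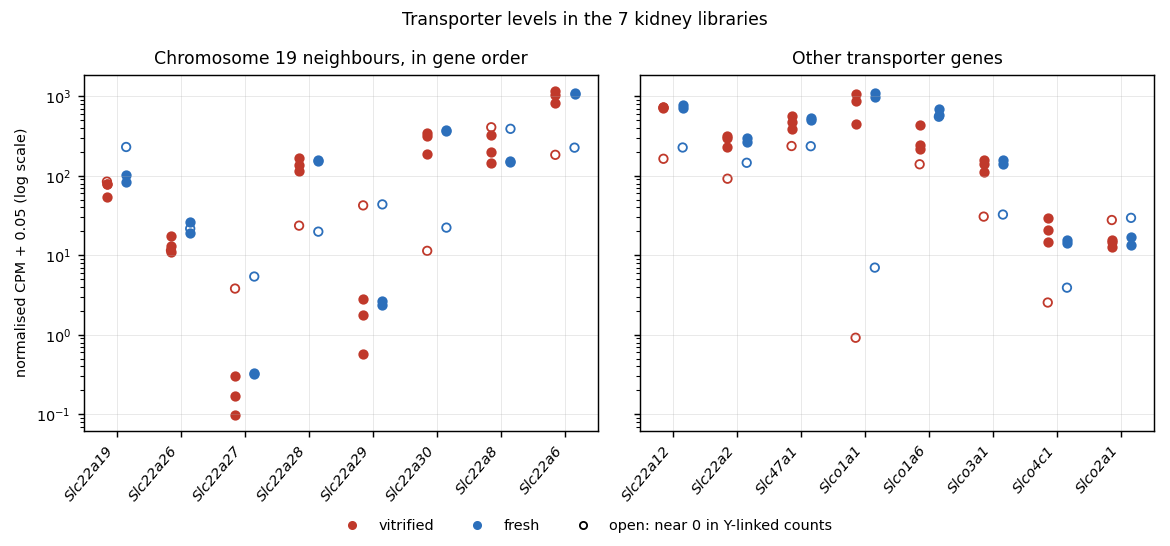
Normalised CPM plus 0.05 (log scale) in the 7 kidney libraries, vitrified left of fresh for each gene, with the chromosome 19 neighbours in gene order on the left and 8 other carriers on the right. Open points mark kidney vitrified 4 and kidney fresh 3, which lie near 1 CPM and 7 CPM for Slco1a1 and near 43 CPM for Slc22a29, away from the other 5 kidneys.

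Slc22a28 and Slc22a30 are close copies, which limits how far their counts can be separated. Of the 50-base words of Slc22a28 transcripts, 53.3% also occur in Slc22a30, and the authors' counting may divide such reads. In RefSeq, 35 of the 42 genes had a promoter entry (250 bases before the start used), and those of this pair were identical over 93.0% of the alignment, with unaligned ends counted as differences, where the median of 595 pairs of promoters of these genes was 48.1%. The promoters follow, from chr19:8131983-8132232 (minus strand) for Slc22a28 and chr19:8405106-8405355 (minus) for Slc22a30 in GRCm38.p6, with capitals for the 6 aligned positions at which they differ. They are shown beside the pair's differing levels.
Slc22a28: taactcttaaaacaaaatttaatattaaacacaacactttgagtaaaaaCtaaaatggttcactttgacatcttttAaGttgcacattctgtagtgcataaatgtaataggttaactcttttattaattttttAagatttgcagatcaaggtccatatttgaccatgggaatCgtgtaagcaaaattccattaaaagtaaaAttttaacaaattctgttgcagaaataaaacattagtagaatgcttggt
Slc22a30: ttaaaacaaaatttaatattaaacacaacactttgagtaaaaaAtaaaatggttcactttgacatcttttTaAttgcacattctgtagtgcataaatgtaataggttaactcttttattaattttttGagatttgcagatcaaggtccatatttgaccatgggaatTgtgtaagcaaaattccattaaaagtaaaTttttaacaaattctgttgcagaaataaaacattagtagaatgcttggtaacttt
Slc22a28 made up 5.1% to 8.5% of the summed CPM of the pair in livers other than liver fresh 3, where it was 0.586%. In kidney it made up 29.0% to 38.6%, and 67.5% and 47.1% in kidney vitrified 4 and kidney fresh 3. The share was thus lower in every liver than in any kidney. The promoter of Slc22a29, which lies between them, was 65.2% identical to that of Slc22a30.

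The comparison the study was built for, vitrified against fresh oocytes, gave no called carrier in liver. Of 24 tested genes 0 passed edgeR's quasi-likelihood test, and 0 had an unadjusted p under 0.05. Over all 12335 genes 0 passed and 3.16% had an unadjusted p under 0.05. DESeq2, limma-voom and limma on log2(FPKM + 1) called 0 carriers as well. The median log2 fold change, vitrified over fresh, was -0.06 for the carriers and 0.01 for all genes tested, with 11 carriers above 0 and 13 below.

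Neither of the 2 leading uptake carriers passed the test. Slco1b2 had 1690, 2021 and 1639 CPM in vitrified livers and 1960, 1841 and 2501 CPM in fresh livers (log2 fold change -0.22 ± 0.22, unadjusted p = 0.362 by edgeR). Slco1a1 had 1007, 1295 and 957 CPM in vitrified livers and 1328, 1820 and 1332 CPM in fresh livers (-0.44 ± 0.24, unadjusted p = 0.0982 by edgeR). Slco1b2 overlapped, whereas in normalised CPM each vitrified liver was below each fresh liver for Slco1a1. In FPKM Slco1a1 overlapped too, with liver vitrified 2 at 279.4 and liver fresh 1 and 3 at 258.5 and 260.9. It also overlapped with library totals alone. Slc22a30 had 387, 344 and 397 CPM in vitrified livers and 466, 374 and 343 CPM in fresh livers (-0.05 ± 0.20), with overlap.

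In normalised CPM, groups did not overlap for 4 of 24 carriers, all lower in vitrified livers. This held for 8.42% of all genes in either direction and for 4.53% in the lower one. Besides Slco1a1, the 4 carriers were Slc22a15, Slc22a6 and Slco1a6. Slc22a15 had 4.37, 1.77 and 1.85 CPM in vitrified and 4.96, 6.18 and 4.69 CPM in fresh livers (-0.97 ± 0.42, unadjusted p = 0.0503 by edgeR). In FPKM Slc22a15 overlapped, with liver vitrified 1 at 0.67 and liver fresh 3 at 0.63. Slc22a6 had 2.84, 2.72 and 2.52 CPM in vitrified and 3.12, 3.32 and 3.25 CPM in fresh livers, and Slco1a6 had 1.90, 1.77 and 1.85 CPM in vitrified and 2.80, 2.01 and 2.50 CPM in fresh livers. Both are among the carriers at a trace of their kidney level. The 18 kidney markers moved the same way, with a median of 0.336%, 0.321% and 0.309% of their kidney level in vitrified livers and 0.467%, 0.436% and 0.384% in fresh livers. Their part in the 2 results was not tested.

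In kidney, again 0 of 31 carriers passed edgeR's test between origins, as 0 of all 14018 genes did. Of the 31, 4 (12.9%) had an unadjusted p under 0.05, all lower in vitrified kidneys, where 2.05% of all genes did so in either direction and 1.08% in the lower one. The adjusted p was 0.999 for each. DESeq2, limma-voom and limma on log2(FPKM + 1) called 0 carriers. The median log2 fold change was -0.03 for the carriers and 0.02 for all genes tested.

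Slco1a6 had 443, 246, 217 and 140 CPM in vitrified kidneys and 590.1, 691 and 555 CPM in fresh kidneys. Every vitrified kidney was below every fresh one, and the lowest was the vitrified library near 0 in Y-linked counts. The log2 fold change was -1.23 ± 0.36 (unadjusted p = 0.00819 by edgeR) and -1.09 ± 0.31 without the 2 kidneys near 0 in Y-linked counts. Over 20 other settings it lay between -1.61 and -1.02, with adjusted p from 0.410 to 1.

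Slc22a26 (ENSMUSG00000053303), of the rodent-specific group, had 10.9, 13.1, 17.6 and 11.5 CPM in vitrified kidneys and 26.3, 19.04 and 21.7 CPM in fresh kidneys. The groups did not overlap (-0.75 ± 0.21, unadjusted p = 0.00599 by edgeR), and the value was -0.71 ± 0.26 without the kidneys near 0 in Y-linked counts. Slco1a6 and Slc22a26 were the 2 carriers of 31 without overlap, where 3.61% of all genes had none and 1.98% had none and were lower in vitrified kidneys.

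The other 2 carriers rest on 1 library. Slc22a19 had 79.3, 54.8, 78.0 and 84.7 CPM in vitrified kidneys and 102, 82.6 and 231 CPM in fresh kidneys (-0.90 ± 0.34, unadjusted p = 0.0284 by edgeR). Slc22a13 had 22.8, 23.8, 32.9 and 28.5 CPM in vitrified kidneys and 32.2, 30.9 and 92.5 CPM in fresh kidneys (-0.94 ± 0.38, unadjusted p = 0.0343 by edgeR). In both, kidney fresh 3 was the highest by far and the rest overlapped. Without kidney fresh 3 the log2 fold change was -0.32 for Slc22a19 and -0.23 for Slc22a13.

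**Figure D4:**
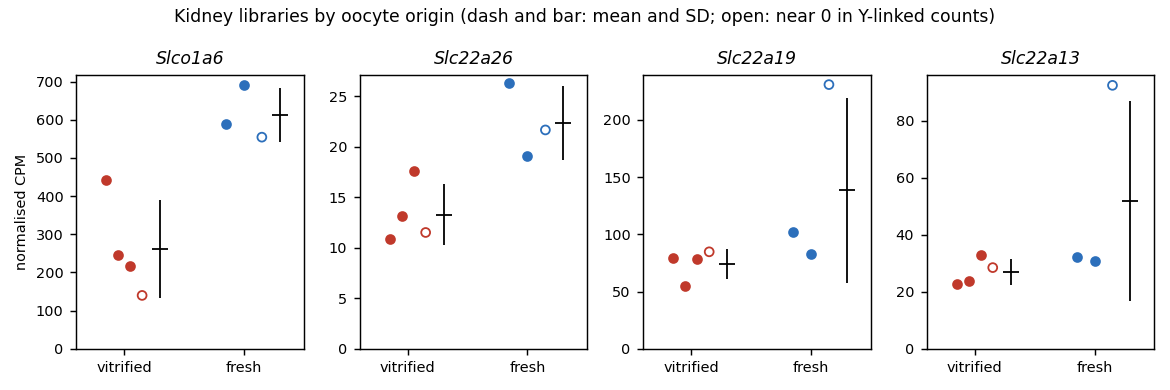
Normalised CPM in kidney libraries of vitrified (left, n = 4) and fresh (right, n = 3) origin for the 4 carriers with an unadjusted p under 0.05, with mean and SD at the side and open points for the libraries near 0 in Y-linked counts. Slco1a6 and Slc22a26 do not overlap between origins, whereas for Slc22a19 and Slc22a13 the fresh mean is drawn up by kidney fresh 3 at 231 and 92.5 CPM.

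Markers of the proximal tubule were mixed between origins, with 5 of 8 below 0, a median log2 fold change of -0.08 and 1 of 8 (Cubn, -0.57 ± 0.23) at an unadjusted p under 0.05 by edgeR. Their summed level was 9060 to 31120 CPM in vitrified kidneys and 13040 to 27970 CPM in fresh kidneys, and no marker was at 0. Their part in the 4 results was not tested. The carriers that lead the kidney by FPKM showed no difference past the test: Slc22a12 had 729, 720.1, 740 and 164 CPM in vitrified and 773, 713 and 227 CPM in fresh kidneys (0.04 ± 0.57), and Slc22a6 had 1054, 829, 1178 and 184 CPM in vitrified and 1060, 1114 and 226 CPM in fresh kidneys (0.02 ± 0.69). Their wide errors come with 1 library near 0 in Y-linked counts in each group; without those the values were -0.03 ± 0.16 and -0.09 ± 0.20.

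**Figure D5:**
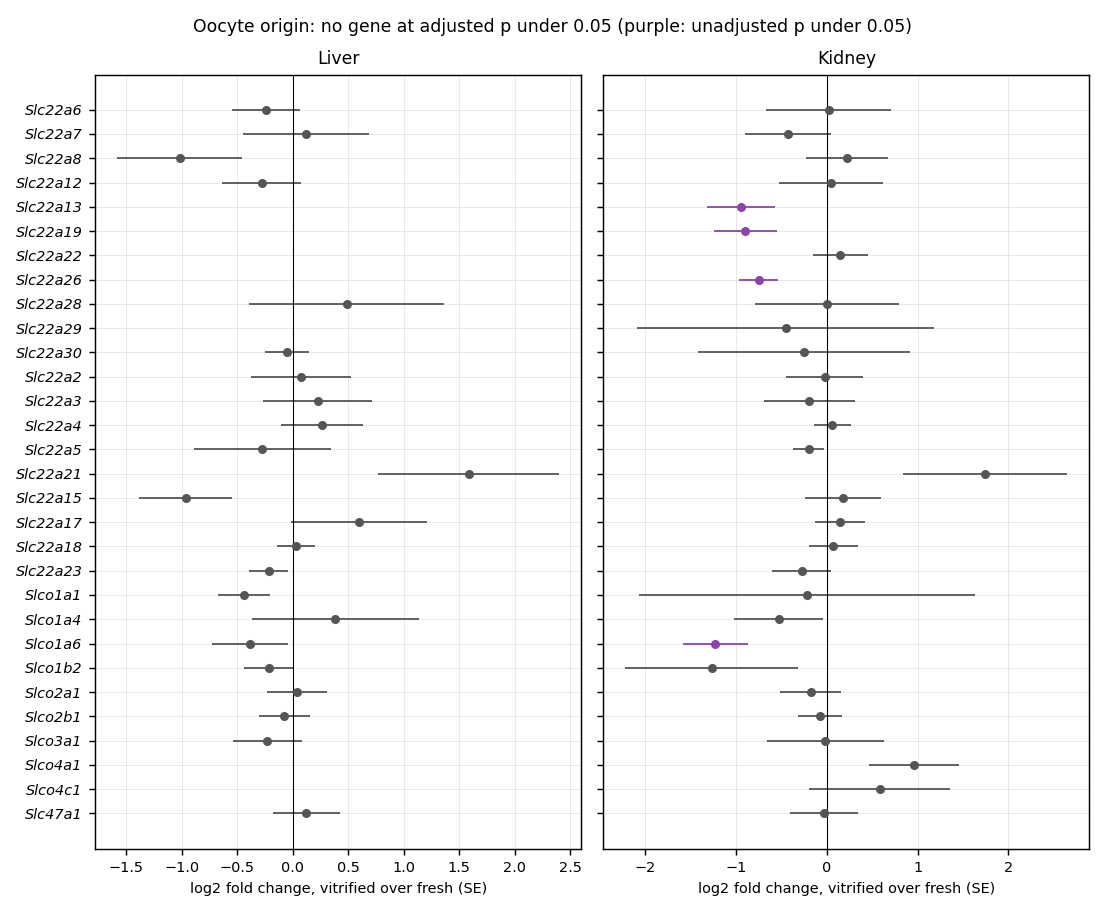
Log2 fold change, vitrified over fresh, with SE from edgeR, in liver (left) and kidney (right; the scales differ) for tested carriers, purple where the unadjusted p was under 0.05. No carrier shown passed the adjusted threshold in either organ, and the 4 purple points in kidney are all below 0.

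The origin effect was also compared between organs, as the difference of the vitrified over fresh values in liver and in kidney. Of 32 carriers 0 passed edgeR's test, nor did any of all 14441 genes, and 1 carrier had an unadjusted p under 0.05, beside 1.90% of all genes. This was Slc22a26 (-6.26 ± 2.54, unadjusted p = 0.0307 by edgeR), and it rests on the 533 CPM of liver fresh 3. The value turned to 2.16 without that library and to 2.12 without all 3 libraries near 0 in Y-linked counts. It was -7.90 without liver vitrified 2, -1.09 with a replicate block and -2.08 by limma-voom.

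Genes that work alongside these families were compared in the same fit. Of 19 efflux pumps and neighbouring carriers of anions and bile acids, 7 were higher and 10 lower in liver by edgeR, beside 30.3% and 32.4% of all genes, and 0 passed by origin in either organ. In liver were Abcb11, the bile salt export pump (10.03 ± 0.81), Slc10a1, the sodium-dependent bile acid uptake carrier (9.22 ± 0.47), and Abcc2, an efflux pump for anion conjugates (1.48 ± 0.22). In kidney were the urate and phosphate carrier Slc17a1 (-4.94 ± 0.39) and the scaffold Pdzk1, which binds apical carriers (-3.10 ± 0.17). Of 14 transcription factors known to act on transporter genes, 7 were higher and 3 lower in liver, beside the same shares of all genes (62.7% in either direction), and 0 passed by origin. They included Nr1i3 (9.49 ± 0.51) and Nr1i2 (4.27 ± 0.48), receptors of foreign compounds, while Hnf4a did not pass (0.22 ± 0.21).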

How the data were processed

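Total RNA of 13 libraries was sequenced. The authors' deposited table held an estimated count and an FPKM value per gene and library. The submitters' processing notes list HISAT2 2.4, Bowtie2 2.2.8, StringTie 1.3.1, DESeq2 and build GRCm39. Their roles, and how reads were counted or assigned to strands, are not stated there. Between 7.63% and 9.14% of the estimated counts per library were not whole and were rounded. Genes sharing sequence may divide reads in such counts.

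Counts were analysed with edgeR 4.0.16 in R 4.3.3 (TMM, filterByExpr with a minimum count of 10, robust quasi-likelihood test, Benjamini-Hochberg adjustment over all genes tested, called under 0.05). Organ and interaction were contrasts of 1 fit over 13 libraries and 4 groups, and origin was fitted in each organ alone. Fold changes are log2, with SE derived from the test statistic. DESeq2 1.42.0, limma 3.58.1 (voom, and log2(FPKM + 1) with 0.1 as another pseudocount), other scalings and filters, a replicate block, a Y-linked covariate and leaving out libraries were alternatives. The steps were tested on simulated data. All libraries have similar depth, which limits genes near 1 CPM. The carriers and lists were chosen with earlier results of these data known. Values per library are given for carriers leading an organ by FPKM, those with an unadjusted p under 0.05 by origin, and those known to differ by sex in mice. Shared 50-base words came from GENCODE transcripts and promoters from RefSeq, both of build GRCm38 and used for sequence only. Libraries may come from littermates, and p-values therefore reflect only variation among the samples at hand. The values of 1 carrier and some other genes are not reported here, although the counts include them.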

Additional observations from a re-analysis of the deposited data

Results flagged for a closer look

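Among the 31 carriers tested in the 4 vitrified kidneys, 4 had 1 library far from the other 3, where chance gives about 1 in 20 groups and 8.23% of all 14018 genes tested there had such a library. For 3 of the 4 carriers it was kidney vitrified 4, which was so placed for 3.51% of all genes. Each value is the gap to the nearest library divided by the range of the group. Slc22a12 was lowest in kidney vitrified 4 (164 CPM, 0.965 of the range), and Slc22a17 (23.9 CPM, 0.851) and Slc22a29 (42.5 CPM, 0.946) were highest in it. That library was near 0 in Y-linked counts, and kidney fresh 3, the other such kidney, lay on the same side for these 3 genes, at 227, 18.96 and 43.7 CPM. Slc22a21, the carnitine carrier Octn3, was highest in kidney vitrified 2 (14.8 CPM, 0.949), against 1.94, 1.83 and 1.24 CPM in the other vitrified kidneys. It shares 21.7% of its 50-base words with Slc22a5. The part of that shared sequence in the value was not tested.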

How the results depend on the processing

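Counts of called carriers stayed within 1.5 times of those reported under all alternatives. Over them, 5 to 9 carriers were higher in liver and 17 to 23 higher in kidney. Leaving out 1 library gave 7 to 8 and 18 to 20. Origin and interaction gave 0 under each setting. With a replicate block the organ counts were 7 and 20, and origin in both organs and the interaction gave 0. For origin the block joined vitrified and fresh libraries of equal number, which the labels do not link. Their deviations from group means correlated at -0.189 to 0.074 in liver and -0.469 to 0.449 in kidney, so this 0 says little. Livers and kidneys of equal number correlated in their deviations at 0.034 to 0.357. Of 6 livers, 5 were closest to the kidney of their own number. Fresh 3 was near 0 in Y-linked counts in both organs, and vitrified 3 had raised stress genes in both. These are hints of pairing that the labels do not settle, and the main organ test treated all 13 libraries as independent. Results that reversed were Slc22a23 between organs (-0.332 with library totals alone, -0.228 on log2(FPKM + 1) with or without the filter, -0.239 with a pseudocount of 0.1) and the interaction of Slc22a26 (leaving out 1 library gave -7.901 to 2.163, the highest without liver fresh replicate 3, and 2.124 came without all libraries near 0 in Y-linked counts). Beside those named above, organ calls were lost for Slc22a29 and Slc22a21 by limma-voom (adjusted p = 0.1 and 0.0824), for Slc22a28 in fresh libraries alone (0.121), and for Slc22a15, Slc22a23 and Slc22a21 in vitrified libraries alone (0.0606, 0.0924 and 0.175). The cause of each was not tested. Carriers below about 1 CPM in an organ are limited by depth, and in liver 0 vitrified and 1 fresh library were near 0 in Y-linked counts.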
